A study of Mus musculus with 11 samples.

Results

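The Wnt ligands, their receptors and their secreted antagonists were examined in mRNA sequencing of 11 cell lines grown from OvTrpMyc mice. All rows of the gene table named as a Wnt, Frizzled (Fzd), Sfrp or Dkk gene were taken, together with Frzb, Wif1, Lrp5, Lrp6, Axin2, Lef1, Tcf7, Lgr5, Rspo1, Rspo2, Rspo3, Ror1 and Ror2. This gave 48 genes of the 28284 in the table: 18 ligands, 9 Frizzled receptors, 4 co-receptors, 3 R-spondins, 10 secreted antagonists, and 4 readouts. The choice goes by gene symbol alone and uses no measured value.

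Wnt proteins are secreted lipid-modified ligands that bind a Frizzled receptor. Together with the co-receptors Lrp5 and Lrp6 this binding stabilizes beta-catenin, which then activates genes with the DNA-binding factors of the Tcf and Lef family, and other Wnts signal through Ror1 and Ror2 without beta-catenin. R-spondins amplify the signal by removing ubiquitin ligases that degrade Frizzleds, while the Sfrp proteins, Frzb and Wif1 sequester Wnts and Dkk1, Dkk2, and Dkk4 bind Lrp5 and Lrp6. Dkk3 belongs to the Dkk family by sequence and is not an inhibitor that binds Lrp5 or Lrp6. In the female reproductive tract, Wnt4 is required for the formation of the Mullerian duct and for ovarian development.

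Every line carried the same genotype, Ovgp1-Trp53-R270H-Myc, in which p53-R270H and Myc are joined in 1 transcript that a fragment of the Ovgp1 (oviductal glycoprotein) promoter drives from within the Trp53 locus. No line without the transgene was analysed here. The lines came from 7 mice on a C57BL/6 background that had reached euthanasia criteria, whose ages the labels do not give, and they were grown untreated in RPMI medium. They were 7 ovary lines (F318 LOV, F318 ROV, F319 ROV, F326 ROV, F339 ROV, F364 LOV, and F364 ROV, where ROV is the right and LOV the left ovary), 2 uterus lines (F319 and F333), 1 line from a splenic tumor of F326, and 1 from a peritoneal tumor of F361. Ovaries were excised together with the fallopian tubes, so an ovary line is not the product of 1 cell type by dissection, and per the methods of the study the F361 line did not express the mutant p53 codon. Each line was sequenced as 1 library, and a pair of lines came from each of the mice F364, F326, F319, and F318, so error can be judged from the spread between lines alone and lines of 1 mouse are not independent.

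Libraries held 13580525 to 27044598 counts on genes. Levels are given as CPM (counts per 1000000 counts of the same library), and a gene was called not detected at 3 counts or fewer, which is 0.111 to 0.221 CPM. The 7 libraries numbered 1 to 7 in the labels stood apart from the 4 numbered 8 to 11 (both uterus lines, F318 LOV, and F339 ROV). The 19 skeletal muscle fiber genes measured took 6.88% to 12.6% of the counts in libraries 1 to 7 and 0.146% to 1.12% in libraries 8 to 11, and the 4 Y-linked genes together reached 128 to 174 CPM in the former and 1.75 to 19.2 CPM in the latter. Both sets of genes go against labels of female reproductive tract cancer lines. The labels call the cells ovarian cancer, yet the epithelial marker Epcam was at 0 in 6 lines and at most 2.12 CPM, and Pax8, the Mullerian lineage factor, was at 0 in 5 lines and at most 3.04 CPM. The 10 epithelial markers together summed to 6.28 to 163 CPM, with counts of Krt18, Krt19, and Ovgp1 in every line, and the keratins were higher in some lines, with Krt18 at 67.9 CPM and Krt8 at 52.7 CPM in F319 ROV, Krt18 at 39.9 CPM in F364 ROV, and Krt7 at 40.5 CPM in the F333 uterus line. The 9 fibroblast or stromal markers summed to 977 to 23522 CPM. In bulk libraries of this kind, fewer cells of a type and less RNA per cell cannot be told apart.

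**Figure D1:**
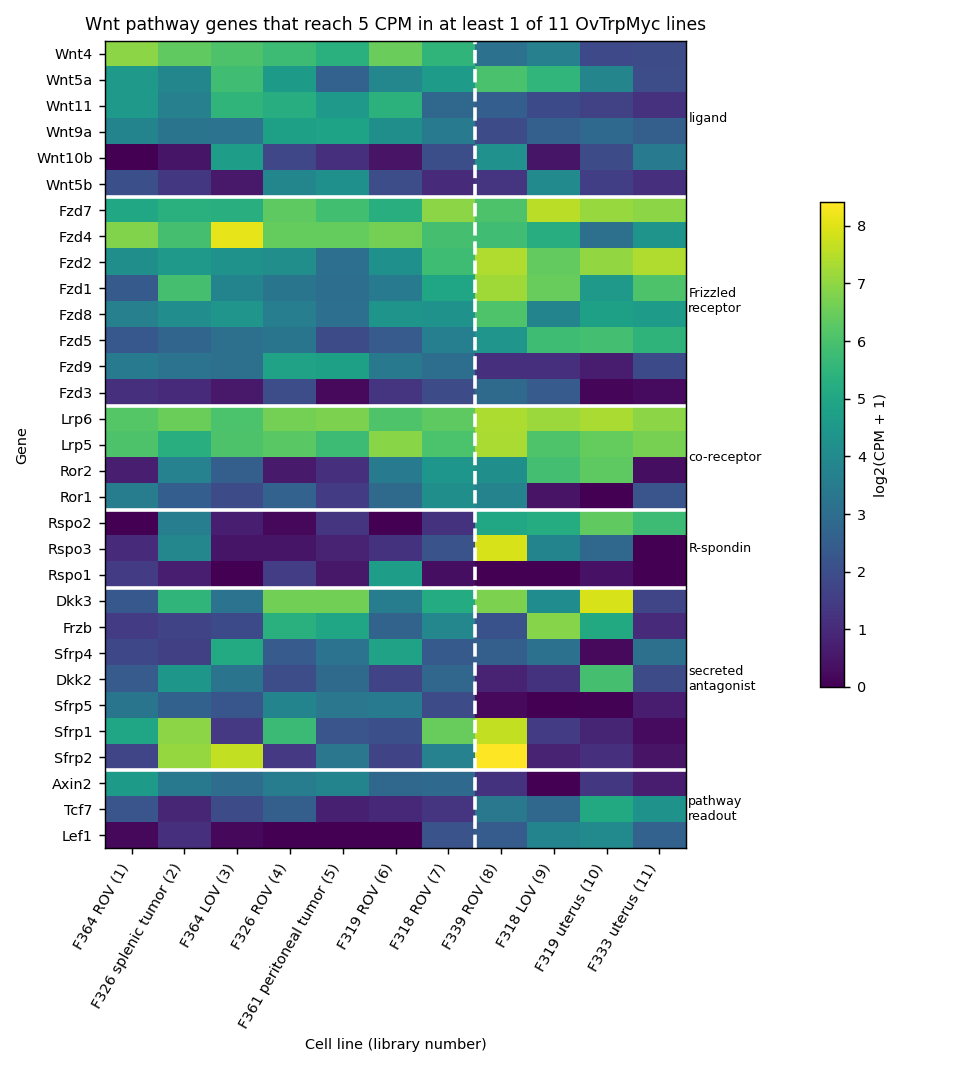
Levels of the 31 genes that reach 5 CPM in at least 1 line, as log2(CPM + 1) in color, with 1 row per gene grouped by role and 1 column per line with its library number in parentheses. The dashed line separates libraries 1 to 7 from 8 to 11. Wnt4 and Fzd4 are brighter on the left, Fzd2, Fzd5, and Rspo2 are brighter on the right, and the antagonists change from line to line on both sides.

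Of the 48 genes, 14 reached 1 CPM in every line, 9 stayed below 1 CPM in every line, and 31 reached 5 CPM in at least 1 line. The genes present everywhere were 4 ligands (Wnt4, Wnt5a, Wnt9a, and Wnt11), 6 Frizzleds (Fzd1, Fzd2, Fzd4, Fzd5, Fzd7, and Fzd8), both Lrp co-receptors, and 2 antagonists (Dkk3 and Frzb). The 9 that stayed below 1 CPM were Wnt1, Wnt3, Wnt3a, Wnt7a, Wnt8a, Wnt9b, Dkk1, Dkk4, and the stem cell marker Lgr5. Of these, Wnt3a, Wnt7a, Wnt8a, Wnt9b, Dkk1, and Dkk4 were not detected in any line. The other 8 (Wnt2, Wnt2b, Wnt6, Wnt7b, Wnt10a, Wnt16, Fzd10, and Wif1) peaked between 1.34 CPM for Wnt16 in F326 ROV and 4.75 CPM for Wnt2b in the F326 splenic tumor line. Wnt7b and Wnt10a passed 1 CPM in a single line, the F319 uterus line, with 1.77 and 2.18 CPM.

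Wnt4 was the leading ligand in each of libraries 1 to 7 and in none of libraries 8 to 11. To compare ligands, counts were divided by the exon length of the gene, and the share of each ligand in the sum over all 18 was taken. Wnt4 held 67.9% of this sum in F364 ROV, 68.1% in the F326 splenic tumor line, 35.1% in F364 LOV, 30.9% in F326 ROV, 28.4% in F361, 51.7% in F319 ROV, and 52.3% in F318 ROV. In libraries 8 to 11 it held 9.71% in F339 ROV, 15.5% in F318 LOV, 7.03% in the F319 uterus line, and 10.2% in the F333 uterus line. The leading place passed there to Wnt5a, the prototype of a ligand that signals without beta-catenin, in F339 ROV (42.0%) and F318 LOV (32.8%, with Wnt5b at 32.7%). Wnt9a led in the F319 uterus line with 21.9% against 19.0% for Wnt5a, but by reads not divided by length Wnt5a led that line with 35.7%. Wnt10b led in the F333 uterus line with 43.9%. All ligands together summed to 90.7 to 203 CPM in libraries 1 to 7, against 25.2 to 103 CPM in libraries 8 to 11.

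**Figure D2:**
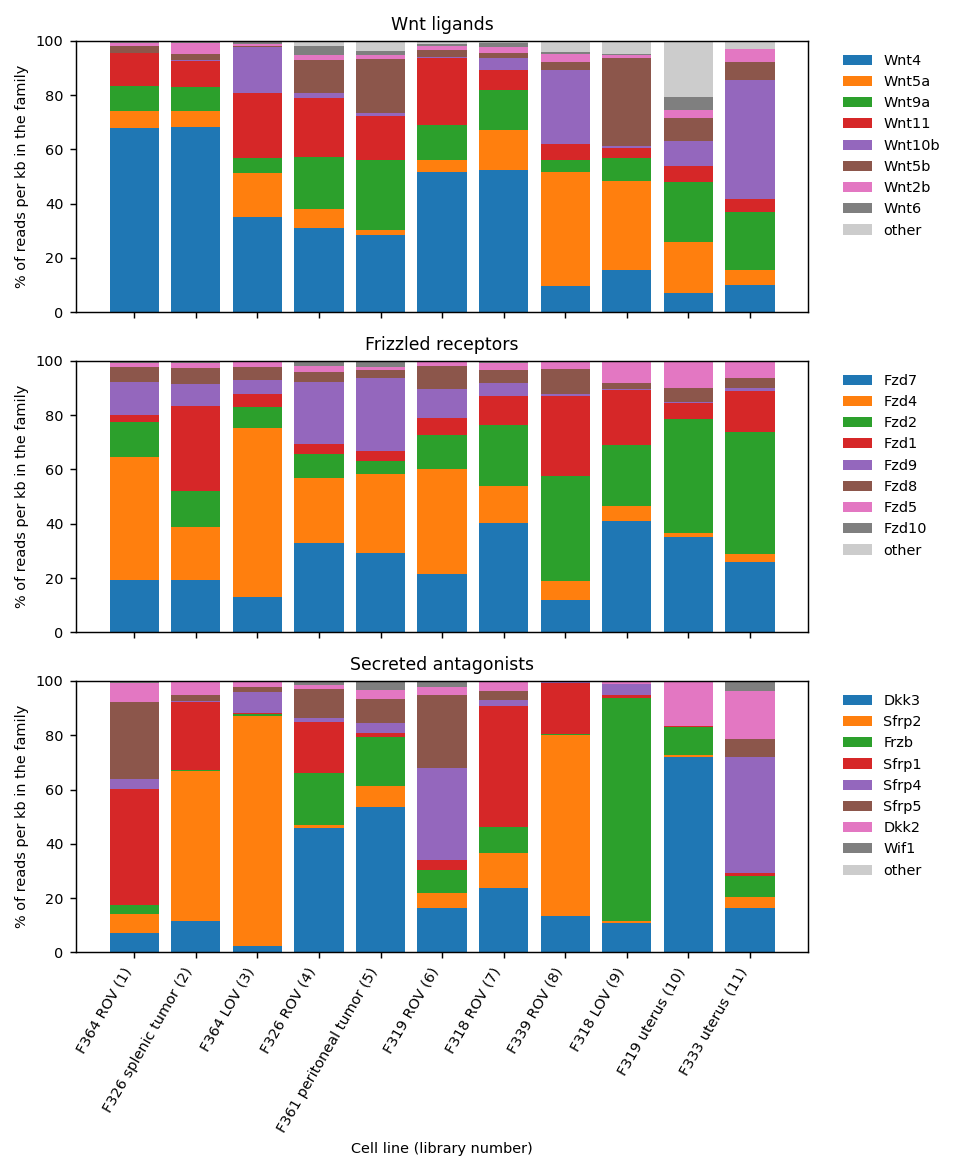
Composition of the ligand, Frizzled, and secreted antagonist families in each line, as the percentage of the family's reads per kilobase of exon held by each gene (the 8 genes with the highest mean share are colored, the others are gray). Wnt4 (blue, top panel) holds 28.4% to 68.1% of the ligands in libraries 1 to 7, whereas the leading antagonist (bottom panel) changes even between lines of 1 mouse.

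The level of Wnt4 (chromosome 4, 137277489 to 137299726, GRCm38, plus strand) ran from 39.7 CPM in F361 through a median of 65.4 CPM to 123 CPM in F364 ROV over libraries 1 to 7. It was 7.84 CPM in F339 ROV, 11.6 in F318 LOV, 2.59 in the F319 uterus line, and 2.88 in the F333 uterus line, so the medians differed 12.2-fold and the libraries did not overlap. Wnt11, a ligand of cell movements in gastrulation and kidney branching, had a lowest, median, and highest level of 6.22, 22.5, and 43.8 CPM in libraries 1 to 7 and 4.67, 2.71, 2.18, and 1.30 CPM in libraries 8 to 11 in the order just given. Its gap was narrow, since F318 ROV at 6.22 CPM lay close to F339 ROV at 4.67 CPM. Wnt9a ran from 8.23 through 12.8 to 28.3 CPM in libraries 1 to 7 and from 2.82 CPM in F339 ROV to 6.40 CPM in the F319 uterus line.

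Wnt5a did not follow the library numbers. It was 5.23 CPM in F361, 13.6 in the F326 splenic tumor line, and 13.7 to 56.5 CPM in the 5 ovary lines of libraries 1 to 7. The remaining ovary lines had 63.3 CPM (F339 ROV) and 45.5 CPM (F318 LOV), and the uterus lines had 13.1 and 2.92 CPM. Wnt5b, its paralog, was high in 3 lines, with 17.7 CPM in F361, 15.4 CPM in F318 LOV, and 13.4 CPM in F326 ROV, and it did not pass 3.17 CPM elsewhere. Wnt10b, a ligand of mesenchymal cells that restrains fat cell formation, was likewise high in few lines. It reached 25.4 CPM in F364 LOV, 17.9 CPM in F339 ROV, and 10.1 CPM in the F333 uterus line, against 3.08 CPM or less in the other 8, and no count was found in F364 ROV, the opposite ovary of the same mouse as F364 LOV.

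The Frizzled receptors shifted in composition between the same libraries, while their total was 385 to 532 CPM in libraries 8 to 11, against 192 to 382 CPM in the others. These totals nearly met, and they overlapped after TMM scaling, where F364 LOV had the largest. Fzd4 led the Frizzleds per kilobase in 3 lines of libraries 1 to 7, with 62.2% in F364 LOV, 45.2% in F364 ROV, and 38.5% in F319 ROV. In libraries 8 to 11, Fzd2 led 3 of 4 lines with 38.8% to 44.95%, and Fzd7 led F318 LOV with 41.0%. Fzd7 was also the leader in F326 ROV, F361, and F318 ROV, and Fzd1 led in the F326 splenic tumor line with 31.2%. The lead of Fzd7 in F361 was 29.3% against 29.0% for Fzd4, and by reads not divided by length Fzd4 led in F326 ROV (34.8%), F361 (42.9%), and the splenic tumor line (28.2%), and Fzd7 led in the F319 uterus line (35.5%).

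Fzd4, the receptor of the retinal vessel ligand Norrin and of Wnts (chromosome 7, 89404355 to 89413134, GRCm38, plus strand), had a lowest, median, and highest level of 59.9, 84.3, and 275 CPM in libraries 1 to 7. It was at 55.4 CPM in F339 ROV, 36.7 in F318 LOV, 7.69 in the F319 uterus line, and 19.4 in the F333 uterus line. The ranges did not overlap but nearly met. Fzd9 fell on the same side, with 7.19, 9.54, and 27.4 CPM in libraries 1 to 7, against 0.592 to 2.74 CPM in libraries 8 to 11.

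Fzd2 ran the other way. Its lowest, median, and highest levels were 7.36, 17.7, and 54.5 CPM in libraries 1 to 7, and libraries 8 to 11 had 169 (F339 ROV), 82.4 (F318 LOV), 132 (F319 uterus), and 170 CPM (F333 uterus), an 8.50-fold difference of the medians. Fzd5 followed with 2.80, 5.70, and 11.4 CPM against 20.1, 54.0, 58.7, and 43.7 CPM in these lines. Among libraries 1 to 7, F318 ROV had the highest level of both Fzd2 and Fzd5, and its 6.88% of counts on muscle fiber genes was the lowest share of those 7. Fzd7 and Fzd1 overlapped between the library sets. Fzd7 ran from 31.7 CPM in F364 ROV to 121 CPM in F318 ROV in libraries 1 to 7 and from 65.0 CPM to 186 CPM in libraries 8 to 11. Fzd1 had its 3 highest levels in F339 ROV (147 CPM), F318 LOV (85.98 CPM), and the F333 uterus line (65.6 CPM), with the F326 splenic tumor line next at 59.3 CPM. Fzd8 lay between 7.36 and 26.7 CPM except in F339 ROV, where it was 67.1 CPM, and Fzd3 did not pass 6.43 CPM in any line.

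The co-receptors of the beta-catenin branch varied least. Lrp6 had its lowest level in F364 LOV (64.4 CPM) and its highest in F339 ROV (163 CPM), a 2.54-fold span over 11 lines, and Lrp5 from 37.3 CPM in the F326 splenic tumor line to 161 CPM in F339 ROV, a 4.32-fold span. Lrp6 was at 64.4 to 106 CPM in libraries 1 to 7, against 121 to 163 CPM in libraries 8 to 11, but this gap closed when the totals were scaled with TMM, edgeR's correction for library composition. Ror2, a Wnt5a receptor, instead spanned 344-fold. It was at 79.8 CPM in the F319 uterus line and 57.9 CPM in F318 LOV, at 20.5 CPM in F318 ROV and 17.1 CPM in F339 ROV, and at 0.232 CPM in the F333 uterus line, so the extremes were the 2 uterus lines. Ror1 peaked at 17.4 CPM in F318 ROV and 12.5 CPM in F339 ROV and had no count in the F319 uterus line.

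R-spondins were scarce in libraries 1 to 7, where the 3 genes summed to 1.012 to 25.8 CPM with a median of 2.79 CPM, and they summed to 48.8 to 270 CPM in libraries 8 to 11. Rspo2 (chromosome 15, 43020794 to 43170826, GRCm38, minus strand) was at 32.2 CPM in F339 ROV, 35.9 in F318 LOV, 80.1 in the F319 uterus line, and 53.7 in the F333 uterus line. In libraries 1 to 7 it reached 11.01 CPM in the F326 splenic tumor line and at most 1.47 CPM in the 6 others, with no count in F364 ROV and F319 ROV. Rspo3 was dominated by a single line, F339 ROV with 238 CPM, against 0 to 13.9 CPM elsewhere. Rspo1, an ovarian determination factor, was at 24.5 CPM in F319 ROV and no more than 1.87 CPM in the 10 others. F319 ROV also had the highest sum of mesothelial or ovarian surface markers, which reached 691 CPM there against 0.510 to 90.5 CPM elsewhere, and the highest sum of the 10 epithelial markers, 163 CPM. Of the former list, Wt1 was about as high in F364 ROV (65.6 CPM) and F326 ROV (67.2 CPM) as in F319 ROV (72.7 CPM). The part of these cells in its Rspo1 level was not tested.

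The secreted antagonists differed widely between lines, and had no common leader. In the 6 that were detected in every line (Sfrp1, Sfrp2, Sfrp4, Frzb, Dkk2, and Dkk3), the highest line exceeded the lowest by 77.1-fold for Dkk2 to 1056-fold for Sfrp1. Per kilobase, Dkk3 led in 3 lines, Sfrp2 in 3, Sfrp1 in 2, Sfrp4 in 2, and Frzb in 1. With Dkk3 left out, Frzb led in 3 lines and Dkk2 in 1. Sfrp2 was at 338.6 CPM in F339 ROV, 196 CPM in F364 LOV, and 135 CPM in the F326 splenic tumor line, and at 0.371 to 12.1 CPM in the other 8. Sfrp1 was at 196 CPM in F339 ROV, 123 CPM in the F326 splenic tumor line, 86.1 CPM in F318 ROV, 52.1 CPM in F326 ROV, and 30.1 CPM in F364 ROV, and did not pass 3.68 CPM in the other 6. Only F339 ROV and the F326 splenic tumor line were above 100 CPM for both genes.

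Frzb was at 118 CPM in F318 LOV, 39.3 CPM in F326 ROV, 33.1 CPM in the F319 uterus line, and 30.8 CPM in F361, and between 1.07 and 13.8 CPM in the rest. Dkk3, a divergent Dkk family member, was at 237 CPM in the F319 uterus line, 105 CPM in F339 ROV, 97.3 CPM in F326 ROV, and 96.3 CPM in F361, and at 2.37 CPM in the F333 uterus line. Dkk2 was at 60.5 CPM in the F319 uterus line and 20.9 CPM in the F326 splenic tumor line, against 0.784 to 8.35 CPM in the other 9. The F333 uterus line was the line with the least antagonist mRNA, 15.3 CPM in all and 12.9 CPM without Dkk3. Sfrp4 exceeded 10 CPM in F364 LOV (34.5 CPM) and F319 ROV (27.5 CPM). Sfrp5 was the single antagonist that separated by library number, with 2.80, 8.62, and 12.8 CPM as its lowest, median, and highest levels in libraries 1 to 7 and at most 0.557 CPM in libraries 8 to 11, where F318 LOV had no count.

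**Figure D3:**
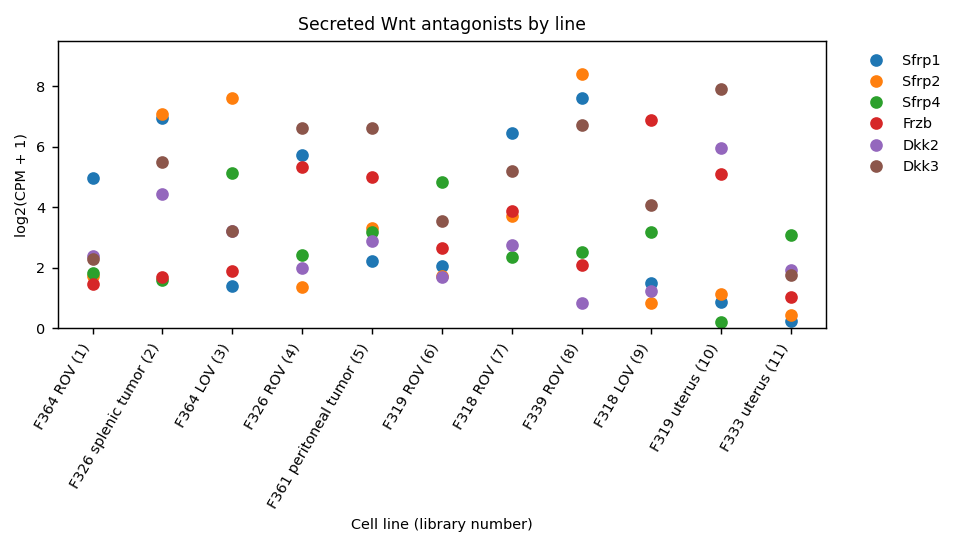
Levels of 6 secreted antagonists in each line, as log2(CPM + 1), with the library number in parentheses and 1 point per gene and line. Sfrp2 (338.6 CPM) and Sfrp1 (196 CPM) are highest in F339 ROV, Frzb (118 CPM) in F318 LOV, and Dkk3 (237 CPM) and Dkk2 (60.5 CPM) in the F319 uterus line.

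Axin2, Lef1, and Tcf7 are themselves induced by beta-catenin in many tissues, and they did not move in 1 direction here. Axin2, a feedback inhibitor and the most widely used readout of the pathway (chromosome 11, 108920349 to 108950783, GRCm38, plus strand), had a lowest, median, and highest level of about 6, 9.49, and 23.2 CPM in libraries 1 to 7. It was at 1.33 CPM in F339 ROV, 1.55 CPM in the F319 uterus line, and 0.557 CPM in the F333 uterus line, and not a single count was found in F318 LOV, which allows up to 0.131 CPM. Every level in libraries 8 to 11 was below every level in libraries 1 to 7. Lef1 (chromosome 3, 131110471 to 131224356, GRCm38, plus strand) went the other way, with no count in F326 ROV, F361, and F319 ROV, at most 3.43 CPM in libraries 1 to 7, and 4.47, 12.7, 15.1, and 5.25 CPM in F339 ROV, F318 LOV, and the F319 and F333 uterus lines. Tcf7 (chromosome 11, 52252371 to 52283014, GRCm38, minus strand) was at 0.663 to 4.81 CPM in libraries 1 to 7 and at 9.29, 6.11, 33.6, and 18.6 CPM in those 4 lines, although its ranges overlapped after TMM scaling. Lgr5, the R-spondin receptor and target gene, did not pass 0.801 CPM. The F319 uterus line therefore combined the highest Lef1, Tcf7, and Rspo2 with 1.55 CPM of Axin2.

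The promoters of these readouts are shown because the genes ran in opposite directions. They are RefSeq sequences of GRCm38.p6, each from 250 bases before to 50 bases after a transcription start and read along the gene, with the core of the Tcf and Lef binding motif in capitals (CTTTG, or CAAAG where it lies on the other strand). For Lef1 the first of its 4 listed starts and the downstream start with the most matches are given, the latter chosen for its count. For Tcf7 the first of 2 listed starts is given. Whether the motif has a part in the directions was not tested.
Axin2, chr11:108920099-108920398, plus strand: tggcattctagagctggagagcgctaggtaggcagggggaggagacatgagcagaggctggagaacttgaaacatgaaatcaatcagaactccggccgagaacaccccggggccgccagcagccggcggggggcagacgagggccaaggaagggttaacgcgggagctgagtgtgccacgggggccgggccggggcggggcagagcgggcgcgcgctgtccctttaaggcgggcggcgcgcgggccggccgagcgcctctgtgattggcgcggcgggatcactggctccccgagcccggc
Lef1, chr3:131110047-131110346, plus strand: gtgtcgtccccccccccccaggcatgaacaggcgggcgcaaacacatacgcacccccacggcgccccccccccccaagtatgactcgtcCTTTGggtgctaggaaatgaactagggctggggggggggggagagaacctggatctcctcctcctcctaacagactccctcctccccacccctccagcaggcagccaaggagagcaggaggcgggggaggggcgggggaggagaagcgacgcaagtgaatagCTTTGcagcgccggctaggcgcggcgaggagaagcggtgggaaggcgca
Lef1, chr3:131156044-131156343, plus strand: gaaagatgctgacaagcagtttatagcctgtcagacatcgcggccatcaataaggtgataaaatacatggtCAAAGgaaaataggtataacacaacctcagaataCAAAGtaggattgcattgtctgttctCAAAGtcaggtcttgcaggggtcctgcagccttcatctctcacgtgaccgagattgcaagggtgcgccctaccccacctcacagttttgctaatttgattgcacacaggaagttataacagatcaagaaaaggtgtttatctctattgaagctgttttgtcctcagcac
Tcf7, chr11:52282965-52283264, minus strand: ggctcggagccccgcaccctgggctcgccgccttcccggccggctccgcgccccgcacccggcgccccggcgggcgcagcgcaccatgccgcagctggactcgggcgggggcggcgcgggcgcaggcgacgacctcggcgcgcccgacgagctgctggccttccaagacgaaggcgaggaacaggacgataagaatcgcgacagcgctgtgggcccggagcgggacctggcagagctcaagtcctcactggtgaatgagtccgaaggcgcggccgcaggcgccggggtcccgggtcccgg
The core occurred 0 times in the Axin2 window, 2 times in the first Lef1 window, 3 times in the downstream one, and 0 times in the Tcf7 window. It occurred 2 and 1 times in the Lef1 windows not printed and 0 times in the Tcf7 window not printed. Over both strands it was found in 53.9% of the 32851 promoters of the table and in 51.3% of the 39 promoters of the 32 genes that could be matched by symbol. These shares describe letters in a short window, and sites elsewhere in the genes were not examined.

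Altogether 13 of the 48 genes (27.1%) did not overlap between libraries 1 to 7 and 8 to 11, beside 25.5% of all 28284 genes. Of them 6 were higher in libraries 8 to 11 (Fzd2, Fzd5, Lef1, Lrp6, Rspo2, and Tcf7; 15.3% of all genes were higher) and 7 were lower (Axin2, Fzd4, Fzd9, Sfrp5, Wnt4, Wnt9a, and Wnt11; 10.2% of all genes were lower). Among genes with a mean of at least 1 CPM the share was 13 of 32 (40.6%) beside 44.8% of 14665 (27.8% higher and 17.1% lower), so the Wnt genes separated about as often as genes at large. In 6 of them the nearest lines of the 2 library sets lay close together, with 59.9 against 55.4 CPM in Fzd4, 106 against 121 in Lrp6, 4.81 against 6.11 in Tcf7, 8.23 against 6.40 in Wnt9a, 3.43 against 4.47 in Lef1, and 6.22 against 4.67 in Wnt11. With TMM scaling 11 genes separated, and over all genes the split of 4329 higher and 2895 lower became 3242 higher and 3668 lower. No test was made, because this division of the libraries was noticed in the same data.

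**Figure D4:**
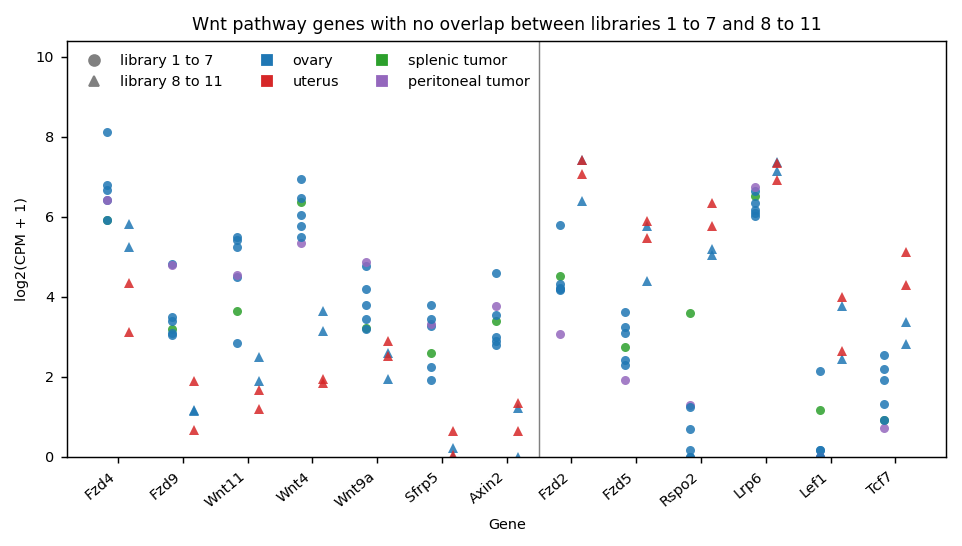
The 13 genes whose levels do not overlap between libraries 1 to 7 (circles) and 8 to 11 (triangles), as log2(CPM + 1), with 1 point per line colored by organ of origin. The 7 genes left of the gray line are lower and the 6 right of it higher in libraries 8 to 11. The blue triangles (F339 ROV and F318 LOV) are on the same side of the circles as the red ones (uterus). In some genes, among them Fzd4 and Tcf7, they lie nearer the circles than the red ones do. After TMM scaling, Lrp6 and Tcf7 overlap.

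Some lists of cell type markers moved with the 7 lower genes and others did not. The endothelial markers Pecam1, Cdh5, Kdr, and Tek summed to 62.1 to 265 CPM in libraries 1 to 7, against 2.18 to 72.2 CPM in libraries 8 to 11, and 3 of the 4 did not overlap. The blood markers summed to 9.51 to 19.6 CPM and to 2.44 to 3.45 CPM, and 17 of 19 muscle fiber genes were lower without overlap. The sum of the fibroblast or stromal markers ran opposite, with 977 to 12824 CPM in libraries 1 to 7, against 14326 to 23522 CPM in libraries 8 to 11. Of these 9 genes 3 were higher and 2 (Dcn and Lum) lower without overlap. Of 5 smooth muscle markers 2 (Acta2 and Cnn1) were higher and 2 lower, and no epithelial or mesothelial marker separated. Among all genes 15.3% were higher and 10.2% lower, or 27.8% and 17.1% at a mean of 1 CPM or more. The part of these cell types in the levels of the Wnt genes was not tested. Leaving the muscle fiber genes out of the totals left the same 13 genes separated.

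Of 60 further pathway genes, 57 were in the table, of which 41 reached 1 CPM in every line. Between the library sets, 14 were higher in libraries 8 to 11 (15.3% of all genes were), 3 were lower (10.2%), and 40 overlapped, and with TMM scaling 12 were higher and 5 lower. These 14 and 3 genes were all among the 50 with a mean of at least 1 CPM, of which they were 28.0% and 6.0%, beside 27.8% and 17.1% of all such genes. With TMM scaling the 12 higher and 5 lower genes of these 50 stood beside 20.9% and 21.7% of all such genes. Wls, which carries Wnts to the cell surface, was at 24.7 to 78.1 CPM in libraries 1 to 7, against 193 to 661 CPM in libraries 8 to 11, while Dvl1, which relays the receptor signal, was at 242 to 388 CPM and 95.2 to 113 CPM. Its paralog Dvl2 went the other way, with 12.00 to 31.7 CPM and 36.4 to 79.3 CPM, and Dvl3 overlapped. Among 9 target genes, 4 were higher, 0 were lower, and 5 overlapped, and with TMM scaling 3 were higher and 1 lower. The targets Ccnd1 (7.22 to 103 against 150 to 515 CPM), Cd44 (10.97 to 131 against 209 to 831 CPM), and Myc (6.92 to 93.6 against 153 to 291 CPM) were higher in libraries 8 to 11, and reads of the Myc transgene are not separated from those of the endogenous gene. Wisp1 was higher as well but overlapped after TMM scaling. Tnfrsf19 (4.56 to 21.6 against 0.222 to 5.59 CPM) was the target that was lower after TMM scaling, and Bmp4 was at 6.05 to 103 CPM in libraries 1 to 7 and at 50.5 CPM in F339 ROV but at 0.742 CPM or less in the other 3. Ctnnb1, which encodes beta-catenin, overlapped, with 220 to 350 CPM and 312 to 736 CPM. The feedback genes Notum and Rnf43 did not pass 0.696 and 1.34 CPM, and the target Nkd1 was highest in F318 LOV, at 79.9 CPM, the line with no Axin2 count.

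The design also allowed the 2 uterus lines to be compared with the 7 ovary lines, where edgeR called no Wnt gene and DESeq2 called 8. With the quasi-likelihood test of edgeR, 0 of 17446 genes (0.0%) had a Benjamini-Hochberg adjusted p under 0.05, and 2308 (13.2%) had an unadjusted p under 0.05. Of the 48 Wnt genes, 38 passed the filter on low counts, and 8 of them had an unadjusted p under 0.05, 2 of them higher in the uterus lines (4.72% of all genes were) and 6 lower (8.51%). The count was 5 without the F319 uterus line, 13 without F318 LOV, and 7 to 10 without any other single line. The 8 were Tcf7 and Dkk2, and Wnt4, Wnt5a, Wnt11, Fzd3, Fzd4, and Sfrp1. DESeq2 called 1315 of 27829 genes (4.73%), 8 of them Wnt genes, of which 7 were lower (Wnt4, Wnt5a, Wnt11, Fzd3, Fzd4, Sfrp1, and Sfrp2) and Tcf7 higher. The uterus libraries are numbered 10 and 11 and only 2 ovary libraries are numbered above 7, so organ and library number are partly confounded.

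Among the 8 genes with an unadjusted p under 0.05 in edgeR, Wnt4 had an ovary range of 7.84 to 123 CPM with a median of 53.4 CPM, above 2.59 and 2.88 CPM in the uterus lines. Its log2 fold change, uterus over ovary, was -4.64 (SE 1.28; edgeR adjusted p = 0.359), and it shrank to -1.76 with a term for library number. Fzd3 was at 0.506 to 6.43 CPM in the ovary lines with a median of 2.80 CPM, and at 0.0740 and 0.186 CPM in the uterus lines. The F319 uterus line had 2 counts, which is not detected by the rule above, and the F333 uterus line had 4, so the size of the fold change is imprecise, and the fitted log2 fold change of -4.46 (SE 1.07; edgeR adjusted p = 0.359) was -5.24 with the library term. With 1 line left out this fold change ranged from -5.31 to -3.86. Tcf7 was at 0.896 to 9.29 CPM with a median of 3.61 CPM in the ovary lines, and at 33.6 and 18.6 CPM in the uterus lines, without overlap. Its log2 fold change was 2.49 (SE 0.64; edgeR adjusted p = 0.359), 1.80 with the library term, and 4.94 (SE 1.29) with mouse as a block. The block compares the organs in F319 alone, library 6 against library 10, so organ and library set cannot be told apart in it.

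Wnt5a ran from 13.7 through 23.3 to 63.3 CPM in the ovary lines, and the F319 and F333 uterus lines had 13.1 and 2.92 CPM, a log2 fold change of -2.37 (SE 0.75; edgeR adjusted p = 0.359). Within libraries 8 to 11 alone it was -2.81, it ranged from -3.64 to -1.68 with 1 line left out, and it was -0.35 (SE 0.89) with mouse as a block, where the organs are compared in F319 alone. The F319 uterus line at 13.1 CPM lay just under F319 ROV at 13.7 CPM. Fzd4 and Wnt11 had log2 fold changes of -3.18 (SE 0.999) and -4.02 (SE 1.40), with adjusted p values of 0.359 in edgeR. With 1 line left out they ranged from -4.12 to -2.58 and from -4.29 to -3.73. With the library term these became -1.66 and -1.03, the latter with an SE of 0.82. Sfrp1 was at 1.65 to 196 CPM in the ovary lines, above 0.813 and 0.186 CPM in the uterus lines, with F364 LOV and F318 LOV at 1.65 and 1.83 CPM close to the uterus lines. Its log2 fold change was -6.81 (SE 2.37; edgeR adjusted p = 0.359), or -2.21 (SE 2.95) with mouse as a block. With 1 line left out it ranged from -8.06 to -6.10. Sfrp2, which DESeq2 called, ran from 0.786 through 2.35 to 338.6 CPM in the ovary lines, a range that held the F319 uterus line (1.18 CPM) but not the F333 uterus line (0.371 CPM). Its log2 fold change in edgeR was -6.81 (SE 3.17).

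Dkk2, which DESeq2 did not call, rested on 1 line. The F319 uterus line was at 60.5 CPM and the F333 uterus line at 2.79 CPM, within the ovary range of 0.784 to 8.35 CPM, and its log2 fold change of 2.74 (SE 0.96; edgeR adjusted p = 0.359) turned to -0.56 without the F319 uterus line. It was 4.86 with the library term, 4.81 within libraries 8 to 11, and 4.45 with mouse as a block, fits in which that line remained. The median log2 fold change over the 38 genes was -1.02, beside -0.05 over all genes tested, and 0.01 with the library term. Several genes changed sign with that term, among them Axin2 (-3.23 to 0.69), Sfrp5 (-4.42 to 1.89), Fzd9 (-2.71 to 0.54), and Wnt9a (-1.35 to 0.56). Of the 57 further pathway genes 52 were tested, 0 were called by edgeR, and 7 (13.5%, beside 13.2% of all genes) had an unadjusted p under 0.05 (Ccnd1, Cd44, and Tcf7l2 higher; Porcn, Rnf43, Tnfrsf19, and Bmp4 lower).

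**Figure D5:**
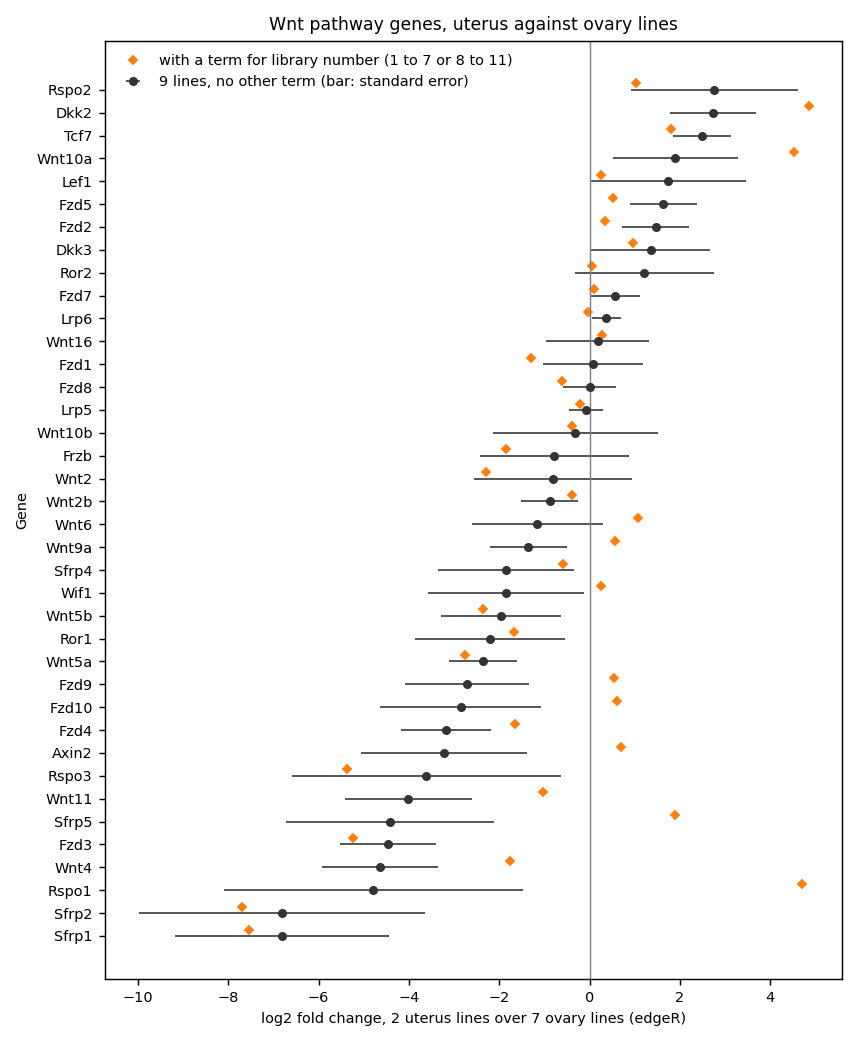
Log2 fold change of the 38 tested Wnt genes in the 2 uterus lines over the 7 ovary lines by edgeR, with bars of 1 standard error (dark points), and with a term for library number (orange diamonds). The standard errors are back-calculated from the test statistic. Sfrp1, Sfrp2, and Fzd3 stay far below 0 in both fits and Dkk2 and Tcf7 above it, whereas Axin2, Sfrp5, Fzd9, and Rspo1 change sign. None passes the adjusted threshold of 0.05.

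Lines of the same mouse were compared next, each pair as 1 library against 1 library, with no replicate check. Over the 31 genes that reach 5 CPM, the median fold between the paired lines was 2.40 in F364 (30 genes, right and left ovary, with Lef1 under the limit of detection in both), 2.95 in F326 (right ovary and splenic tumor), 3.69 in F318 (right and left ovary), and 8.06 in F319 (right ovary and uterus). Over all genes that reach 5 CPM, it was 1.27 in F364, 1.52 in F326, 1.82 in F318, and 2.19 in F319. A difference of 10-fold or more was found in 4 of 30 Wnt genes in F364, and in 5, 7, and 15 of 31 in F326, F318, and F319. Over all such genes the shares were 0.822%, 3.12%, 9.45%, and 11.2%, in the same order of mice. The folds of the Wnt genes include lower bounds where 1 line had no count, and ratios on few counts, such as Sfrp5 in F319 with 1 count in the uterus line. Both lines of F364 and F326 are in libraries 1 to 7, and those of F318 and F319 are split over the library sets. In F364, Sfrp2 was at 2.35 CPM on the right and 196 CPM on the left, 83.6-fold apart, while Sfrp1 was 18.3-fold higher on the right. In F318, Sfrp1 was at 86.1 CPM on the right and 1.83 CPM on the left, and Axin2 was at least 48.8-fold higher on the right, taking 3 counts as the limit for the left. In F319, Rspo2 was at least 596-fold higher in the uterus line, and Wnt4 was 34.1-fold higher in the ovary line.

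The 2 tumor lines were set beside the range of the 7 ovary lines, without a test, since each is a single line. Of the 31 genes, 26 in the F326 splenic tumor line and 22 in the F361 peritoneal tumor line lay within that range. The splenic tumor line was above it in 1 gene and below it in 4, beside 12.1% and 21.5% of the 13497 genes that reach 5 CPM, and the peritoneal tumor line was above it in 2 and below it in 7, beside 13.4% and 30.2%. The splenic tumor line was above it in Dkk2, at 20.9 CPM (95% Wilson interval 18.8 to 23.3) against at most 8.35 CPM, and below it in Lrp5, Sfrp4, Tcf7, and Wnt5a. The peritoneal tumor line was above it in Wnt5b, at 17.7 CPM (15.6 to 20.1) against at most 15.4 CPM, and in Wnt9a, at 28.3 CPM (25.7 to 31.3) against at most 26.4 CPM. It was below the range in 7 genes, with Fzd2 at 7.36 CPM (6.06 to 8.96) against at least 17.0 CPM and Wnt5a at 5.23 CPM (4.15 to 6.59) against at least 13.7 CPM, and also in Fzd3, Fzd5, Fzd8, Lrp5, and Tcf7. Lrp5 was below the ovary range in both tumor lines by more than counting error, at 37.3 and 52.9 CPM against at least 64.5 CPM. Wnt5a and Tcf7 were below it in the splenic tumor line by less than counting error, at 13.6 CPM (11.9 to 15.6) against at least 13.7 CPM and at 0.886 CPM (0.528 to 1.49) against at least 0.896 CPM, and the interval of Sfrp4 there (1.44 to 2.86 CPM) reached into the ovary range as well. In the peritoneal tumor line this held for Tcf7 (0.349 to 1.26 CPM), Fzd3 (0.0404 to 0.537 CPM), and Wnt9a. Intervals cover counting error only, and they were set against the value of the nearest ovary line, which has an error of its own. For Fzd5 the interval in the peritoneal tumor line (2.04 to 3.84 CPM) overlapped that of F364 ROV (3.07 to 5.04 CPM). The Wnt5b interval there began at 15.6 CPM, close to the 15.4 CPM of F318 LOV.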

How the data were processed

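Poly(A) RNA of 11 lines was sequenced in pairs. The authors used STAR for alignment to GRCm38 (mm10), SAMtools RmDup against PCR duplicates, and featureCounts with Ensembl annotation, and the deposited values are raw counts, not normalized. The kit was directional, and the strand setting of the counting is not given in the sources used here. Low counts were more often even than odd (69.2% to 76.3% of the counts from 1 to 49), and whether the mates of a pair were counted singly, which would make counting intervals too narrow, is not given in the sources used here. Exon lengths came from GENCODE M21 on GRCm38.

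From the deposited counts, CPM used each library's total. Uterus and ovary lines were compared with edgeR 4.0.16 in R 4.3.3 (quasi-likelihood test, TMM, filterByExpr, Benjamini-Hochberg over all genes), with DESeq2 1.42.0 as an alternative. Each SE given for edgeR was back-calculated as the absolute log2 fold change over the square root of the F statistic of the test. P-values measure only the spread between lines, some of which share a mouse. All 48 members are accounted for; those reaching 5 CPM, and the readouts, are described with their values. The rule for the members uses gene symbols alone, but it, the pathway genes, and the marker lists were chosen with earlier results of these data known. Groups came from sample titles and library numbers from descriptions. Alternatives covered normalization, filter, threshold, scaling, replicate left out, library number, mouse, and muscle fiber genes.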

Additional observations from a re-analysis of the deposited data

Results flagged for a closer look

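Among the 31 genes that reach 5 CPM, the highest or lowest of the 7 ovary lines was compared with the spread of the others on log2(CPM + 1) by the ratio of gap to range (Dixon, 95% critical value), a test that chance passes in about 1 of 20 genes. It singled out 2 lines. Fzd8 in F339 ROV was at 67.1 CPM against at most 19.996 CPM in the 6 other ovary lines, a ratio of 0.683. Rspo1 in F319 ROV was at 24.5 CPM against 0 to 1.87 CPM, a ratio of 0.674, but Rspo1 reached 5 CPM in F319 ROV alone, so the line singled out is the one through which the gene was examined.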

How the results depend on the processing

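In the comparison of uterus with ovary lines, edgeR called 0 genes, DESeq2 called 1315, and edgeR without the filter on low counts called 2. Leaving out 1 line at a time gave 0 to 1 genes, and no Wnt gene (0 to 0), while DESeq2 called 8. Unadjusted p-values under 0.05 numbered 2308, 972 without the F319 uterus line, 1306 without the F333 uterus line, 3989 without F339 ROV, 4828 without F318 LOV, 847 with the library term, and 522 within libraries 8 to 11. Dkk2 reversed from 2.74 to -0.56 without the F319 uterus line, and reached 3.68 without the F333 uterus line. The other 7 named genes kept their direction under all 17 alternatives, and their adjusted p passed the threshold in DESeq2 alone. Scaling to library totals without TMM moved the median log2 fold change of all genes from -0.05 to 0.12. With mouse as a replicate block, chosen after seeing the data, edgeR called 0 genes and 0 Wnt genes, with 1501 genes and 15 Wnt genes at an unadjusted p under 0.05. Only F319 gave both organs, so this fit compares 1 pair with 2 residual degrees of freedom. The 2 lines of that pair are on different sides of the library split, so organ and library set cannot be told apart in this fit.

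The count of genes separated by library number was 13, 21 in ovary lines alone (43.8%, beside 37.9% of all genes, or 53.1% beside 61.5% at a mean of 1 CPM or more), and 13 to 16 with 1 library left out. The count at 1 CPM or more in every line was 14, 6 at a minimum of 5 CPM, 23 in libraries 1 to 7 alone (an alternative chosen after seeing the data), and 14 to 16 with 1 library left out. The TMM-scaled family totals, the antagonists without Dkk3, and the pathway genes at a mean of 1 CPM or more were likewise chosen after seeing the data. The median share of the leading ligand, 42.0%, stayed between 37.4% and 51.7%. The cause of these changes was not tested beyond what fewer lines or a stricter minimum bring by construction. Library number and organ cannot be fully told apart with 2 uterus lines.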
